A study of Homo sapiens with 9 samples.

Results

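The BCL2 family sets the threshold for the mitochondrial route of apoptosis. Its pro-survival proteins, among them BCL2, BCL-XL (gene *BCL2L1*), BCL-W (*BCL2L2*) and MCL1, hold the effectors BAX and BAK (*BAK1*) in check or capture their activators. BOK is a further effector. The BH3-only proteins, here BID, BIK, BIM (*BCL2L11*) and NOXA (*PMAIP1*), bind the pro-survival proteins or the effectors after stress. Once effectors open the outer mitochondrial membrane, cytochrome c leaves and caspases are activated. Germ cell tumours are known for entering apoptosis readily under chemotherapy, and seminoma is one of their main types. The family was described here through 10 genes, *BCL2*, *BCL2L1*, *BCL2L2*, *MCL1*, *BAK1*, *BOK*, *BID*, *BIK*, *BCL2L11* and *PMAIP1*, each taken by its symbol from the authors' table of 63856 genes. All 10 had 1 row each and passed the filter on low counts, which left 18452 genes for testing.

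Total RNA was sequenced from TCam-2, a human testicular seminoma cell line, in 3 groups of 3 biological replicates. Wild-type cells (WT) were not modified. Cells with the activated *ESX1* gene (ESX1), a homeobox gene on chromosome X, were co-transfected with px335_G2P vectors that carry GFP and gRNAs for the sequence upstream of *ESX1*, and with the PB-TRE-dCas9-VPR vector, a doxycycline-inducible activator. The negative control (NC) received the px335_G2P vector with gRNAs that match no human sequence, and both transfected groups were under puro and doxycycline, so that NC against WT compares transfection and selection while ESX1 against NC compares the gRNAs. The methods do not say whether NC also received the dCas9-VPR vector. After selection fewer than all cells of either transfected group were GFP positive, so a value is a mean over cells with and without the vectors. In such bulk samples, fewer cells of a type and less RNA per cell cannot be told apart.

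Total counts per sample were between 5212804 and 10644408. *ESX1* itself was at 3.13 to 4.08 CPM (reads counted in a gene per 1000000 of its TMM-scaled library, called normalized CPM in the plots) in WT and at 2.89 to 3.63 in NC, and it was at 57.0, 55.7 and 31.4 in the 3 ESX1 samples (ESX1 against NC, log2 fold change 3.85, edgeR adjusted p = 4.48e-08). The seminoma markers were all detected, and 10 of 10 were tested. Their summed level was 3798 to 4664 CPM in WT, 2868 to 3076 in NC and 1610 to 1955 in ESX1. Of the 10 genes, 7, 7 and 9 were lower in NC against WT, ESX1 against NC and ESX1 against WT. Over all tested genes, 17.1, 4.25 and 28.8% were called in either direction. The 10 interferon response genes summed to 94.4 to 116 CPM in WT and 681 to 703 in NC, while the ESX1 samples were at 131, 684 and 132, so ESX1 replicate 2 stood apart from the other two. The share of counts on mitochondrial genes was 17.0 to 18.3% in WT, 14.5 to 15.3% in NC and 19.2 to 19.9% in ESX1. Markers of other cells were low: Sertoli cell markers summed to at most 23.6 CPM, Leydig cell markers to at most 6.49 with *HSD3B2* and *INSL3* at 0, embryonal carcinoma markers to at most 13.9, and leukocyte markers to at most 1.29 with *CD3E*, *LYZ* and *HBB* at 0. Fibroblast markers summed to 109 to 338 CPM, highest in WT replicate 3. Single markers of these lists were called: *COL1A1* was higher (3.64 CPM in WT, 17.0 in NC and 17.7 in ESX1) and *COL1A2* lower (244, 131 and 131 CPM) in both transfected groups against WT, as were *CYP11A1* (higher) and *DNMT3L* (lower), while *SOX2* was higher in NC against WT (4.24 and 9.84 CPM) and *SOX9* in ESX1 against NC (1.24 and 4.45 CPM). Their part in the members' results was not tested.

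Per kilobase of exon, which allows levels of different genes to be compared, *MCL1* was the most abundant member in every sample. In WT it reached 199 ± 36.0 CPM per kilobase (SD, n = 3), against 28.4 ± 3.15 for *BCL2L1*, the next in order. With only exon bases in no other gene as length, *BCL2L1* was at 49.7 ± 5.53 and *BCL2L2* at 6.18 ± 1.04 in WT. The levels that follow use all exon bases. *PMAIP1* at 13.3 ± 2.85 and *BAK1* at 11.04 ± 0.397 followed, and their replicate ranges overlapped. *BCL2L2* (4.68 ± 0.785), *BOK* (4.36 ± 1.29) and *BID* (3.04 ± 0.788) formed a run in which each overlapped the next. *BIK* (1.25 ± 0.589) and *BCL2L11* (0.994 ± 0.195) overlapped as well, and *BCL2* was lowest at 0.205 ± 0.113. Among the members described here, the founding member of the family was therefore at the bottom of the order in TCam-2 cells, in all 9 samples.

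**Figure D1:**
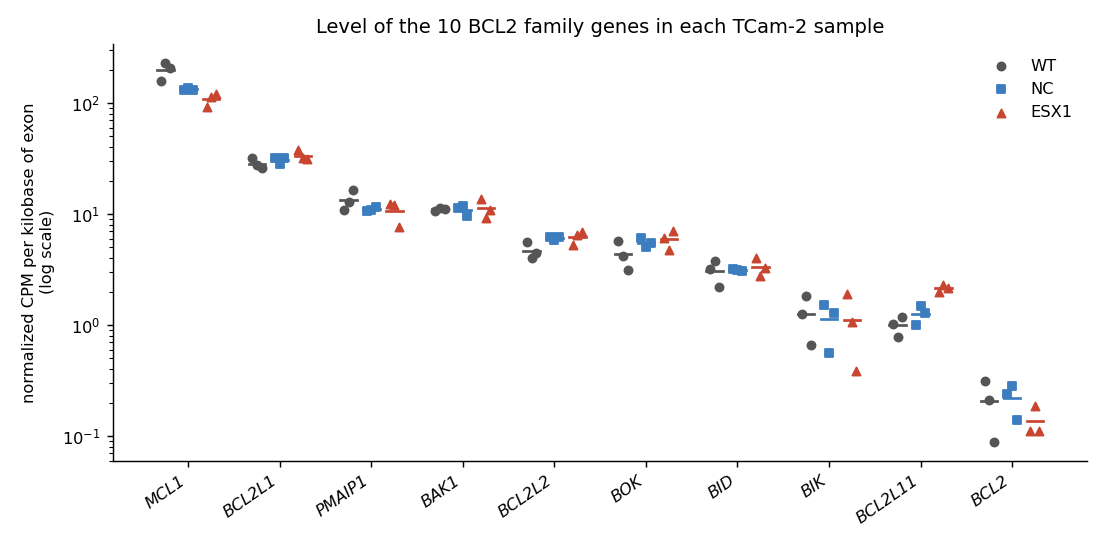
Level of each member in each sample, in normalized CPM per kilobase of exon on a log scale, with 1 point per sample and a line at each group mean (n = 3). *MCL1* lies highest, with group means of 199, 133 and 108 in WT, NC and ESX1, and *BCL2* lies lowest, with group means from 0.137 to 0.220.

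The order was nearly the same in the other groups. *BCL2L11* was the 9th member of 10 in WT and the 8th in NC, where it still overlapped *BIK*. In ESX1 it was again the 8th, at 2.15 ± 0.159 CPM per kilobase, and its range no longer overlapped that of *BIK* at 1.12 ± 0.766. *BAK1* and *PMAIP1* changed places in ESX1, with overlapping ranges.

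*MCL1*, a short-lived pro-survival protein in many cell types, was the member with the clearest difference. On GRCh38 its gene spans chr1:150574551-150579738 on the minus strand, with 3 exon blocks. The WT samples were at 698, 1006 and 907 CPM, the NC samples at 570, 597 and 576, and the ESX1 samples at 401, 493 and 524. Each group lay below the one before it without overlap. Of the 10 members only *MCL1* was lower at both steps in this way, as were 3.52% of all tested genes. The group means were 870.0 ± 157 CPM in WT, 581 ± 13.9 in NC and 473 ± 63.7 in ESX1 (SD, n = 3).

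*BCL2L11* encodes BIM, a BH3-only protein that binds all pro-survival members. It lies on the plus strand of chromosome 2 from 111119378 to 111168447 in the authors' annotation, in which none of its 6658 exon bases belongs to another gene. The WT samples were at 6.77, 5.25 and 7.83 CPM, the NC samples at 6.63, 9.97 and 8.55, and the ESX1 samples at 13.3, 15.4 and 14.2. All ESX1 samples lay above all samples of both controls, while WT and NC overlapped. The group means were 6.62 ± 1.30 CPM in WT, 8.38 ± 1.67 in NC and 14.3 ± 1.06 in ESX1.

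**Figure D2:**
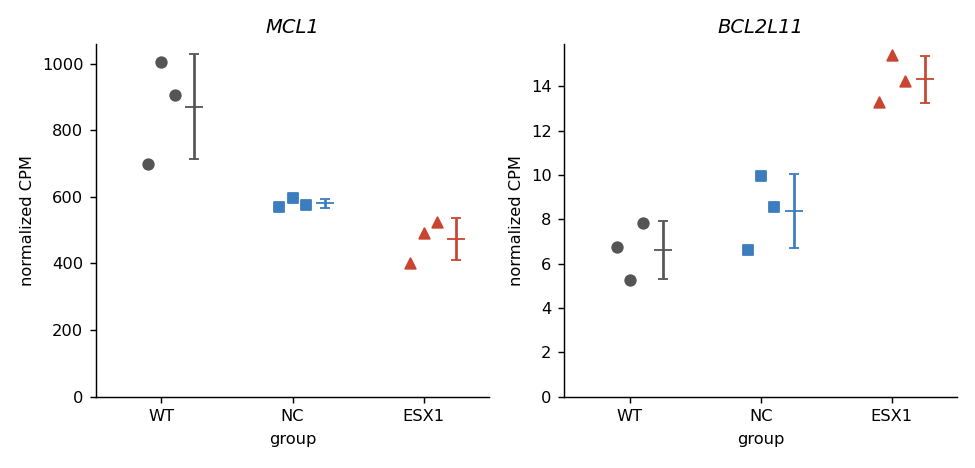
Normalized CPM of *MCL1* (left) and *BCL2L11* (right) in each sample of WT, NC and ESX1, on linear axes from 0, with the group mean and SD beside the points (n = 3). The *MCL1* means are 870.0, 581 and 473 CPM in WT, NC and ESX1, and *BCL2L11* is at 14.3 CPM in ESX1 against 6.62 and 8.38 in the controls.

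The RefSeq promoter of *BCL2L11* is shown because this was the only member higher in ESX1 than in both controls without overlap, 1 of 10 beside 6.39% of all tested genes, and because forkhead factors such as FOXO3 are known to induce it. The window holds the 250 bases before the start site on the plus strand, chr2:111120664-111120913 of GRCh38.p14, which lies inside the span that the authors' annotation gives the gene. Capitals mark the forkhead core GTAAACA, searched on both strands.
BCL2L11: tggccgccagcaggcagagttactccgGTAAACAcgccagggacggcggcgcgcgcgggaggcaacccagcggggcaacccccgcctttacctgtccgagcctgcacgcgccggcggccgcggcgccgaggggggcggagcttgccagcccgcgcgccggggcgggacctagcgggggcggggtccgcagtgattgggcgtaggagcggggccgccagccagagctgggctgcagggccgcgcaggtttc
The match begins 223 bases upstream of the start site. The window is 76.8% G and C, against a median of 58.0% over all promoters in the table, and holds 3 copies of the GC box GGGCGG, which does not overlap the forkhead match. GTAAACA was found in 2.98% of 35116 promoters of this kind and GGGCGG in 42.6%. Among the 12 promoters listed for 7 members (*BCL2*, *BCL2L1*, *BAK1*, *BOK*, *BID*, *BCL2L11* and *PMAIP1*), GTAAACA occurred in that of *BCL2L11* alone. *FOXO3* was at 103, 91.6 and 82.1 CPM in WT, NC and ESX1, and it was lower in ESX1 than in WT (log2 fold change -0.33, edgeR adjusted p = 0.031). It was not called in NC against WT (-0.17, edgeR adjusted p = 0.303) or in ESX1 against NC (-0.16, edgeR adjusted p = 0.533). Whether *FOXO3* or this match has a part in the *BCL2L11* level was not tested.

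The other pro-survival genes differed less. *BCL2L1* was at 106, 91.0 and 85.3 CPM in WT, 107, 94.2 and 106 in NC, and 124, 106 and 103 in ESX1, so that neighbouring groups overlapped. *BCL2L2* was at 23.3, 16.9 and 18.6 CPM in WT, 26.02, 24.65 and 26.06 in NC, and 21.9, 26.9 and 28.8 in ESX1. All NC samples of *BCL2L2* lay above all WT samples, while the ESX1 samples enclosed the NC range and the lowest of them lay below the highest WT sample. *BCL2*, the gene that gave the family its name, had only 7 to 34 counts per sample, or 2.41 ± 1.34 CPM in WT, 2.58 ± 0.867 in NC and 1.61 ± 0.524 in ESX1, with overlap between all groups.

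Of the effectors, *BAK1* was nearly level, at 23.5, 25.2 and 24.5 CPM in WT, 25.3, 26.3 and 21.3 in NC, and 30.3, 20.4 and 24.0 in ESX1. The ESX1 samples enclosed the range of both controls. *BOK*, an effector that can act without the activators the others need, was at 15.2, 11.2 and 8.36 CPM in WT, 16.1, 13.4 and 14.7 in NC, and 16.0, 12.5 and 18.7 in ESX1. Its groups overlapped, with the lowest values in WT.

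Among the other BH3-only genes, *BID*, whose protein is cut by caspase-8 and links death receptors to mitochondria, was at 13.5 ± 3.50 CPM in WT, 13.9 ± 0.231 in NC and 14.9 ± 2.87 in ESX1. *PMAIP1* encodes NOXA, which binds MCL1 by preference and promotes its degradation. It was at 24.2, 28.4 and 36.8 CPM in WT, 23.84, 24.33 and 25.95 in NC, and 27.8, 27.1 and 17.0 in ESX1. The highest *PMAIP1* value was in WT and the lowest in ESX1, but both lay apart from the other samples of their group. *BIK* had 2 to 18 counts per sample and was at 1.19 ± 0.561, 1.07 ± 0.476 and 1.07 ± 0.730 CPM in WT, NC and ESX1, so that only a large difference could have been detected.

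The first comparison, NC against WT, addresses what transfection and selection with nonspecific gRNAs did. *MCL1* fell to 0.668 of its WT level, a log2 fold change of -0.58 with a standard error of 0.128 (edgeR quasi-likelihood test, Benjamini-Hochberg adjusted p = 0.00484), and it was lower in 3 of 3 NC samples than in any WT sample. It was the only member called, 1 of 10, where 17.1% of all tested genes were called. Past a fold change of 2 as well there were 0 members, against 5.27% of all genes. *BCL2L2* had a log2 fold change of 0.38 and did not pass (unadjusted p = 0.0344, edgeR adjusted p = 0.126). For *BCL2L11* the log2 fold change was 0.33 with a 95% interval from -0.12 to 0.78 (edgeR adjusted p = 0.345). The groups did not overlap for 2 members, *BCL2L2* and *MCL1*, against 37.6% of all genes. The median log2 fold change of the members was 0.07, beside 0.01 over all genes, and the median of its absolute value was 0.20 beside 0.34. The interferon response genes moved with this comparison, 9 of 10 being higher in NC. In the 3 ESX1 samples, which had other gRNAs than NC, those genes summed to 131, 684 and 132 CPM. In the same order *MCL1* was at 401, 493 and 524 CPM. The part of the interferon response in the *MCL1* result was not tested. Without WT replicate 1, *BCL2L2* was called as well (log2 fold change 0.52, edgeR adjusted p = 0.0462).

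The second comparison, ESX1 against NC, addresses the activation of *ESX1* with the vectors' own effect held alike only as far as the control allows. The interferon response genes summed to 681 to 703 CPM in NC and to 131, 684 and 132 in the ESX1 samples. The share of counts on mitochondrial genes was 14.5 to 15.3% in NC and 19.2 to 19.9% in ESX1. The part of either in the members' results was not tested. With edgeR 0 of 10 members were called, where 4.25% of all genes were. At an unadjusted p below 0.05 there were 2, *MCL1* and *BCL2L11*, where 16.0% of all genes passed, and DESeq2 called 1, *BCL2L11*. *BCL2L11* was 1.71-fold the NC level (log2 fold change 0.77, standard error 0.218, 95% interval 0.34 to 1.20, edgeR adjusted p = 0.056), and all 3 ESX1 samples were above all NC samples. *MCL1* was at 0.813 of the NC level (log2 fold change -0.30, standard error 0.128, 95% interval -0.55 to -0.05, edgeR adjusted p = 0.251), and all 3 ESX1 samples were below all NC samples. These were the only 2 members without overlap, against 22.6% of all genes. The median log2 fold change of the members was 0.06 beside 0.00 over all genes, and the median absolute value was 0.09 beside 0.22. Whether *BCL2L11* passed depended on the fit. DESeq2 gave an adjusted p of 0.0292, edgeR on the 6 samples alone 0.0439, and edgeR without WT replicate 1 or WT replicate 3, 0.0498 and 0.0457. Without ESX1 replicate 2, the sample that stood apart in the interferon genes, its log2 fold change was 0.71 (edgeR adjusted p = 0.127). Nor was *BCL2L11* called without any other single NC or ESX1 sample (log2 fold changes 0.63 to 0.92, edgeR adjusted p from 0.0742 to 0.249).

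For the remaining members the interval of the difference between ESX1 and NC was narrow where counts were high and wide where they were low. The log2 fold change of *BCL2L1* was 0.12 (95% interval -0.12 to 0.35), that of *BCL2L2* 0.01 (-0.31 to 0.33) and that of *BAK1* 0.04 (-0.29 to 0.37). For *PMAIP1* it was -0.03 (-0.41 to 0.35), for *BID* 0.10 (-0.31 to 0.52) and for *BOK* 0.08 (-0.35 to 0.51). A 2-fold difference lies outside each of these 6 intervals. *BCL2*, at -0.65 (-1.58 to 0.28), and *BIK*, at 0.07 (-1.12 to 1.26), had too few counts for such a bound.

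**Figure D3:**
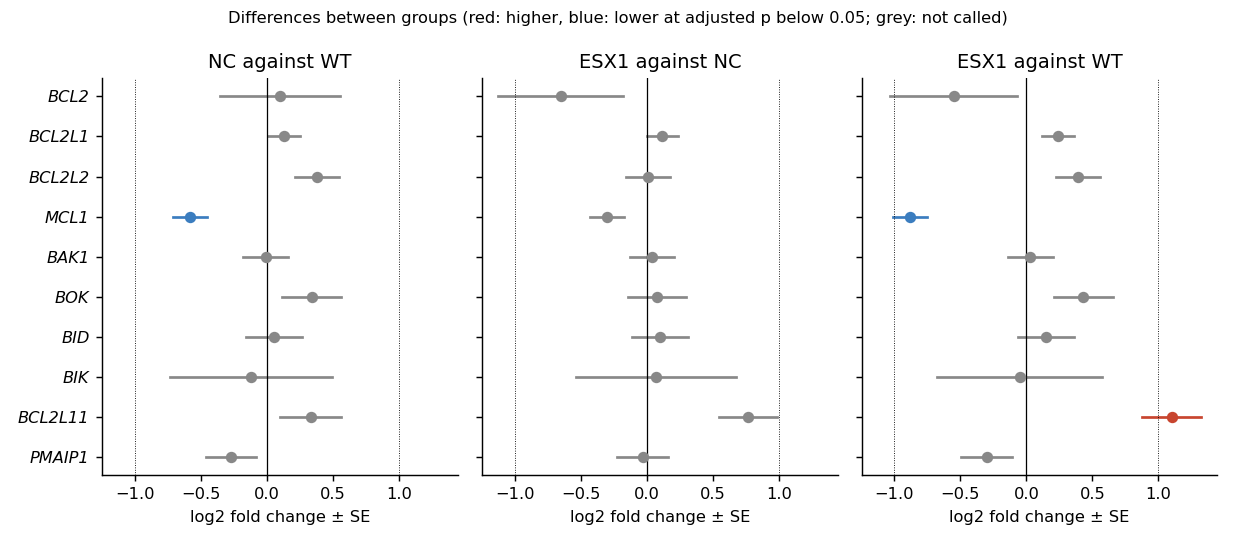
Log2 fold change of each member, with its standard error as a bar, in NC against WT, ESX1 against NC and ESX1 against WT, from edgeR over all 9 samples; dotted lines mark a fold change of 2. The called values are *MCL1* at -0.58 in NC against WT, and *MCL1* at -0.88 and *BCL2L11* at 1.10 in ESX1 against WT.

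The third comparison, ESX1 against WT, combines both steps and shares its samples with the other comparisons. *MCL1* fell to 0.543 of its WT level (log2 fold change -0.88, standard error 0.129, edgeR adjusted p = 7.82e-05), short of a fold change of 2. *BCL2L11* rose 2.14-fold (log2 fold change 1.10, standard error 0.224, edgeR adjusted p = 0.00142) and was the only member past a fold change of 2, as were 11.5% of all genes. Thus 2 of 10 members were called, where 28.8% of all genes were, and the same 2 were without overlap, against 40.3% of all genes. The 3 next in p were *BCL2L2* (log2 fold change 0.39, edgeR adjusted p = 0.0902), *BCL2L1* (0.24, edgeR adjusted p = 0.142) and *BOK* (0.43, edgeR adjusted p = 0.167). The log2 fold change was 0.03 for *BAK1*, 0.15 for *BID*, -0.30 for *PMAIP1*, -0.05 for *BIK* and -0.55 for *BCL2*, and none of these passed. The members' median log2 fold change was 0.09 beside 0.01 over all genes, and the median absolute value was 0.35 beside 0.41. Without WT replicate 1 *BCL2L2* and *BOK* were called too, which made 4 (log2 fold changes 0.53 and 0.68, edgeR adjusted p = 0.0321 and 0.0356), and without ESX1 replicate 1 *BCL2L2* was called (0.50, edgeR adjusted p = 0.0448). The seminoma markers and the mitochondrial share also differed between the groups, as given above, and their part in these results was not tested. Without ESX1 replicate 2 the log2 fold change of *MCL1* was -0.91 (edgeR adjusted p = 0.000229), and with mitochondrial genes left out it was -0.87 (edgeR adjusted p = 8.31e-05). Leaving these genes out changes the library scaling and does not test the part of the mitochondrial share.

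As a share of the summed level of the 10 genes per kilobase, *MCL1* made up 74.4 ± 4.38% in WT, 65.4 ± 1.35% in NC and 59.1 ± 5.75% in ESX1 (SD, n = 3), with no overlap between the groups. The share of *BCL2L1* was 10.9 ± 2.60%, 15.2 ± 1.12% and 18.4 ± 2.63%, and that of *BCL2L11* was 0.380 ± 0.0989%, 0.619 ± 0.122% and 1.18 ± 0.0716%. Shares add up to a fixed total, so a lower *MCL1* level raises the others by itself. The ratio of *MCL1* to *BCL2L11* per kilobase was 157, 292 and 176 in the WT samples, 131, 91.1 and 103 in NC, and 46.0, 48.8 and 56.1 in ESX1. The 3 groups did not overlap in this ratio of a pro-survival gene to its BH3-only antagonist, which was formed from the members that had been seen to differ and is a description. Of *BCL2L1*, 42.97% of the exon bases lie in the antisense gene *ABALON*, and its share was larger, 17.4, 23.6 and 27.9%, when only exon bases in no other gene were counted as length. *MCL1* then made up 68.3, 57.9 and 51.3%.

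**Figure D4:**
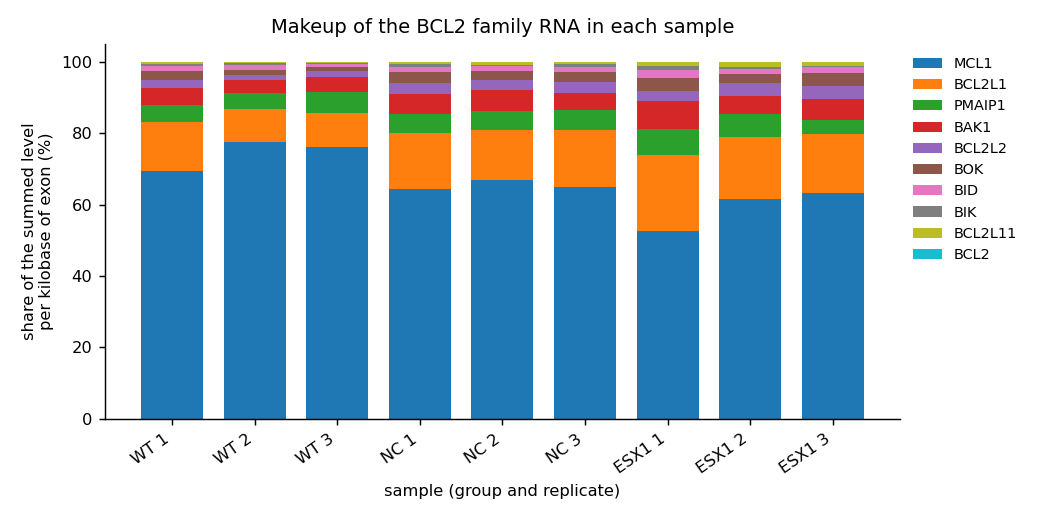
Share of each member in the summed level of the 10 genes, in percent of normalized CPM per kilobase of exon, as 1 stacked bar per sample. The *MCL1* part runs from 69.4 to 77.6% in WT, from 64.2 to 66.9% in NC and from 52.6 to 63.4% in ESX1, with *BCL2L1* as the next largest in every sample.

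Counts were made without strand and per gene, which touches some members. *ABALON* was at 4.06, 3.75 and 3.64 CPM in WT, NC and ESX1 and was not called in any comparison, beside group means of 94.0 to 111 CPM for *BCL2L1*. Reads in the bases that these genes share could not be told apart either, so the *BCL2L1* values are uncertain as well. *BCL2L2* has 24.33% of its exon bases in other genes, namely the readthrough gene *BCL2L2-PABPN1*, with 6 counts over all samples, and the antisense gene *PPP1R3E*. *PPP1R3E* was higher in NC than in WT (log2 fold change 1.53, edgeR adjusted p = 0.0369) and in ESX1 than in WT (1.76, edgeR adjusted p = 0.0113), at 1.17, 3.47 and 4.23 CPM in WT, NC and ESX1. Its reads and those of *BCL2L2* in the shared bases could not be told apart, so the *BCL2L2* values are uncertain. *BOK* and *BAK1* share 7.56 and 4.11% of their exon bases with genes that had 1 and 7 counts in all, and *MCL1* shares 2 bases. A low count of an overlapping gene, *ABALON* and *BCL2L2-PABPN1* included, does not show how many reads fell in the shared bases. Values per gene also do not separate the long and short splice forms of *MCL1*, *BCL2L1* and *BCL2L11*, some of which have opposite effects on survival.

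Genes whose log2 level over the 9 samples was most like that of *BCL2L11* were *PRNP*, *NALCN-AS1* and *PROX1*, with Pearson r of 0.969, 0.967 and 0.957, and 87 tested genes had an r above 0.9. For *MCL1* they were *SCAF8*, *TAF5L* and *UHRF2*, with r of 0.990, 0.989 and 0.985, and 499 genes had an r above 0.9. The samples share their groups and scaling, so these values describe likeness only.

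Around the 10 members, the other genes of the family gave 3 higher and 0 lower of 11 tested in NC against WT, 0 and 0 in ESX1 against NC, and 3 and 0 in ESX1 against WT. The effector *BAX* was at 30.0, 43.0 and 43.3 CPM in WT, NC and ESX1, with log2 fold changes of 0.52 in NC and 0.53 in ESX1 against WT (edgeR adjusted p = 0.0401 and 0.0228). The BH3-only gene *HRK* rose by 1.17 and 1.73 (edgeR adjusted p = 0.0125 and 0.000333), and *BMF*, another BH3-only gene, by 0.82 in ESX1 against WT (edgeR adjusted p = 0.00856). *BCL2L14* was higher by 0.91 in NC against WT (edgeR adjusted p = 0.0341). Of 13 listed genes *BCL2A1* and *BCL2L10* were too low for a test, with 1 and 28 counts in all. The median log2 fold change of this list was 0.22, 0.02 and 0.50 in the 3 comparisons, beside 0.01, 0.00 and 0.01 over all genes. The share called over all tested genes was 17.1% in NC against WT, 4.25% in ESX1 against NC and 28.8% in ESX1 against WT.

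Downstream of the members, 13 genes of the apoptosome, of caspases and of their inhibitors gave 2 higher and 2 lower in NC against WT, 0 and 0 in ESX1 against NC by edgeR, also at an unadjusted p below 0.05, and 4 and 2 in ESX1 against WT. *CYCS*, which encodes cytochrome c, fell by 0.64 on the log2 scale in NC and in ESX1 against WT (edgeR adjusted p = 0.0236 and 0.016). *APAF1*, the scaffold of the apoptosome, rose by 0.43 and 0.51 (edgeR adjusted p = 0.03 and 0.00758). The initiator *CASP9* rose by 1.24 in ESX1 against WT (edgeR adjusted p = 0.00464), as did *DIABLO*, whose protein counters the inhibitors, by 0.57 (edgeR adjusted p = 0.0263). *CASP6* fell by 0.60 in NC against WT (edgeR adjusted p = 0.0379). The inhibitor gene *BIRC3* was higher by 1.59 in NC and 2.25 in ESX1 against WT (edgeR adjusted p = 0.0294 and 0.00172), at 0.710, 2.08 and 3.29 CPM in WT, NC and ESX1. *BIRC5*, a more abundant inhibitor gene, was lower in ESX1 against WT (log2 fold change -0.46, edgeR adjusted p = 0.00863). It was at 124, 107 and 90.0 CPM in WT, NC and ESX1. The median log2 fold change of the list was 0.14, 0.09 and 0.12. Over all tested genes, 17.1, 4.25 and 28.8% were called in NC against WT, ESX1 against NC and ESX1 against WT.

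In the death receptor pathway, which reaches the family through BID, 3 genes were higher and 2 lower of 10 tested in NC against WT, 0 and 1 in ESX1 against NC, and 4 and 3 in ESX1 against WT. The receptor genes *FAS* (log2 fold changes 1.93 and 2.74), *TNFRSF10A* (1.20 and 1.26) and *TNFRSF10B* (1.17 and 1.58) rose in NC and in ESX1 against WT (largest edgeR adjusted p of the 6 values, 0.00378), and the adaptor gene *TRADD* rose by 1.19 in ESX1 against WT (edgeR adjusted p = 0.0029). *CFLAR*, whose protein blocks caspase-8, fell in all 3 comparisons, by 0.52, 0.51 and 1.03 on the log2 scale (edgeR adjusted p = 0.00432, 0.0135 and 4.28e-06), from 239 CPM in WT to 167 in NC and 117 in ESX1. *CASP8*, the gene of the initiator caspase itself, also fell, by 0.86 in ESX1 against WT (edgeR adjusted p = 0.00111), and its relative *CASP10* fell by 0.49 in NC and 0.72 in ESX1 against WT (edgeR adjusted p = 0.0449 and 0.00346). The ligand gene *FASLG* was at 0 counts in all samples. The median log2 fold change of the list was 0.30, -0.12 and 0.11. Over all tested genes, 17.1, 4.25 and 28.8% were called in NC against WT, ESX1 against NC and ESX1 against WT.

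Genes for binding partners and turnover of the members gave 0 of 8 called in NC against WT and in ESX1 against NC by edgeR, and 1 higher and 1 lower in ESX1 against WT. The lower was *HUWE1*, an E3 ligase for MCL1 (log2 fold change -0.37, edgeR adjusted p = 0.00477), and the higher was *MARCH5*, an E3 ligase of the outer mitochondrial membrane (0.60, edgeR adjusted p = 0.0128). Among 6 transcription factors known to induce members, 1 was higher and 1 lower in NC against WT, none was called in ESX1 against NC, and 1 was higher and 2 lower in ESX1 against WT. *DDIT3*, which encodes the stress factor CHOP, was at 9.39, 28.6 and 38.8 CPM in WT, NC and ESX1 (log2 fold changes against WT 1.59 and 2.02, edgeR adjusted p = 3.97e-05 and 8.5e-07). *E2F1* fell by 0.49 and 0.86 on the log2 scale (edgeR adjusted p = 0.0083 and 4.46e-05). Beside both lists, 17.1, 4.25 and 28.8% of all tested genes were called in NC against WT, ESX1 against NC and ESX1 against WT.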

How the data were processed

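RNA-seq libraries of 9 TCam-2 samples (WT, NC and ESX1, 3 replicates each by the labels) were analysed. The authors used HISAT2 2.0.5 (GRCh38.p7) for alignment and featureCounts for counting, and deposited raw counts and log2 values normalized with DESeq2, whose transformation is not named. The file header names featureCounts 1.5.2, the submitters' processing notes 1.6.5. The header's command counted exons without strand, although the library kit keeps strand. Header and methods also name different GENCODE releases. Both tables list 63856 genes, and 0 rows were out of step. Symbols altered by a spreadsheet were matched by identifier (*MARCH5*).

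Counts were fitted in R 4.3.3 with edgeR 4.0.16 (filterByExpr, TMM, glmQLFit, glmQLFTest) over all 9 samples, with Benjamini-Hochberg adjustment over 18452 genes for every comparison. Calls needed an adjusted p below 0.05. Whether a call also passed a fold change of 2 is given beside it. The standard error is the log2 fold change divided by the square root of F. CPM use TMM library sizes, levels per kilobase use the exon bases of the count table, and likeness used log2(CPM + 0.5). The common dispersion was 0.0277. Alternatives were DESeq2 1.42.0, RLE factors, no filter beyond 1 count, the 6 samples compared, a replicate block, limma 3.58.1 on the authors' log2 values, thinning to 5212804 counts, a 2-fold threshold, each sample left out and, added after seeing the data, mitochondrial genes left out. The reported edgeR fit, DESeq2, the replicate block and limma (on log2 CPM) were tested on simulated data, and the other alternatives were not. Promoters came from RefSeq (GRCh38.p14), with entries for 7 of 10 members. Genes named were the 10 members, *ESX1*, the 3 genes most like each called member, from each list up to 4 called genes per comparison with the largest change, and list genes at 0. *APAF1* and *BIRC5* in ESX1 against WT, *CASP8*, *CASP10*, *CFLAR* in ESX1 against WT and the genes too low for a test were named beside the rule, after their values were seen. Genes that share exon bases with a member were named beside these. The members and lists were chosen with earlier results of these data known. Some items of the lists are not reported here.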

Additional observations from a re-analysis of the deposited data

How the results depend on the processing

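The differences of single members stayed on the same side of the threshold in 501 of 510 values recomputed under the alternatives, and the other 9 passed it where the reported value had not. *MCL1* was called under all 17 alternatives in NC against WT (log2 fold changes from -0.72 to -0.47) and in ESX1 against WT (-1.02 to -0.76), and under none in ESX1 against NC (-0.37 to -0.19). *BCL2L11* was called under all 17 in ESX1 against WT (0.84 to 1.24) and under 5 of 17 in ESX1 against NC (0.60 to 0.92, adjusted p from 0.0292 to 0.249).

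Of the counts of members called, that of NC against WT went from 1 to 0 with a 2-fold threshold and lay between 1 and 2 with 1 sample left out, 2 without WT replicate 1. That of ESX1 against NC went from 0 to 1 with DESeq2, with the 6 samples compared and with the replicate block, each time for *BCL2L11*, and lay between 0 and 1 with 1 sample left out, 1 without WT replicate 1 or WT replicate 3. That of ESX1 against WT went from 2 to 1 with a 2-fold threshold and lay between 2 and 4 with 1 sample left out, 4 without WT replicate 1 and 3 without ESX1 replicate 1.

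Whether the replicate numbers pair the samples was not settled. Deviations of samples with the same number correlated at -0.03 to 0.193, and samples with different numbers were not compared in this way. The replicate block gave 3720 calls over all genes in NC against WT, 1052 in ESX1 against NC and 5744 in ESX1 against WT. Without it there were 3158, 784 and 5306. With the replicate block the log2 fold change of *BCL2L11* in ESX1 against NC was 0.78 (edgeR adjusted p = 0.0456), and the block changed no other member's call. Over all genes, 784 calls in ESX1 against NC became 429, 381 and 346 without NC replicates 1, 2 and 3 and 454 without ESX1 replicate 3. With 1 sample left out they were at most 972, without WT replicate 1. The 3158 calls in NC against WT became 1796 and 2151 without WT replicates 2 and 3. Without NC replicates 1, 2 and 3 they were 1929, 2025 and 1905, and they were at most 3601, without WT replicate 1. The causes were not tested. With 3 samples per group and as few as 2 counts for *BIK* and 7 for *BCL2*, their differences could not be bounded below 2-fold.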
